A study of Rattus norvegicus with 6 samples.

Results

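Internal fragments of nuclear tRNAs were described in small RNA libraries of rat muscle. An internal fragment was a distinct read sequence that matched a mature nuclear tRNA exactly, began at position 4 or later and ended at least 3 bases before the last base of the tRNA, which carries the added CCA tail, in every mature tRNA it aligned to. Asp, Gln and Arg tRNAs were outside the rule. It kept 5465 of the 7745 exact sequences of these tRNAs, and of 77567 distinct sequences in all. They came from 167 of 168 mature tRNAs of 19 kinds, with initiator Met (iMet) and selenocysteine (SeC) counted as kinds of their own.

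There were 3 control and 3 experimental libraries, grouped by their titles alone. All 6 were labelled as muscle of Lewis rats, an inbred strain, 6 to 8 weeks old. The series title concerns fragments of tRNAs and acute rejection of composite tissue transplants, while the labels do not state what the experimental animals received, and a skin label and the design text describe mouse skin. No label ties a library to its own animal, and p-values therefore measure a spread between libraries that may be technical. The tissue label could not be checked against marker genes, because the reads used here align to tRNAs.

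A mature tRNA folds into an acceptor stem, where both ends meet, and the D, anticodon and T arms, each a stem closed by a loop. Nucleases cut it mostly in the loops. A cut in the anticodon loop leaves a long 5' and a long 3' piece, a cut in the D or T loop leaves shorter pieces of the 5' or 3' end, and a piece with neither end needs a cut on each side. The anticodon holds the bases that pair with the messenger RNA codon, so a fragment with or without it keeps or lacks the decoding site.

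The following tRNAs show examples of cut patterns, with the fragment in capitals and the rest of the mature tRNA, CCA tail included, in lower case. They do not cover every common layout. The name gives the amino acid and the anticodon, and the numbers are the fragment's first and last position counted from 1 at the 5' end. The 4 sequences below run from the D arm to the 5' side of the anticodon, the commonest layout.
Gly-CCC 16-31: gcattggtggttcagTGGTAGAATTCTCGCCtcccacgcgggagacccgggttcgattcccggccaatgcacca
Lys-CTT 13-28: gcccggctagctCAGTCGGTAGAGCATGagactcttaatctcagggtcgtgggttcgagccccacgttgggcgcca
Lys-TTT 14-31: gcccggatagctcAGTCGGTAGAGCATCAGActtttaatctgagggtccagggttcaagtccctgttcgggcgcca
Pro-AGG 17-31: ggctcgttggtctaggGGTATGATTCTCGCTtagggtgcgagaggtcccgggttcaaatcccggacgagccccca

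The anticodon lay at positions 33 to 35 of the Gly and Pro tRNAs and 34 to 36 of the Lys tRNAs, so each of these fragments stopped before it. Their genes were listed at chr2:198461976-198462046 (Gly-CCC), chr2:198567936-198568008 (Lys-CTT), chr1:228439662-228439734 (Lys-TTT) and chr1:163774197-163774268 (Pro-AGG). These positions are those of the file headers counted from 1, on a build and strand not given in the sources used here. Several fragments matched more than 1 gene, and 1 of these is given.

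The next 4 sequences lie elsewhere in the tRNA: across the anticodon, from the anticodon to the T loop, and from the T arm into the 3' acceptor strand.
Asn-GTT 28-41: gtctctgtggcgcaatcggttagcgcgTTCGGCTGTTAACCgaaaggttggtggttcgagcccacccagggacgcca
Met-CAT 34-54: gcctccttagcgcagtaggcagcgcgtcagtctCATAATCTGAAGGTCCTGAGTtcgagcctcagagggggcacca
Glu-TTC 52-69: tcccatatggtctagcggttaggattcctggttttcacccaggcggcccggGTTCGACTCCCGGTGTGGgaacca
Ala-CGC 52-70: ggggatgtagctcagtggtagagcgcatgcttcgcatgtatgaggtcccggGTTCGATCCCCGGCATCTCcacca

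Their genes were listed at chr2:198596571-198596644 (Asn-GTT), chr17:45637792-45637864 (Met-CAT), chr15:55460897-55460968 (Glu-TTC) and chr17:43930995-43931066 (Ala-CGC). The Asn fragment holds its whole anticodon at positions 35 to 37, and the Met fragment begins with its anticodon at 34 to 36. The layout of the Asn fragment, which lies within the anticodon arm, was rare. It took 0.74% of control and 0.16% of experimental reads of internal fragments, as group means. Glu-TTC 52-69 and Ala-CGC 52-70 both begin on the last base of the T stem's 5' strand, just before the T loop.

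Reads aligned to tRNAs numbered 550004, 740627 and 316990 in control 1, 2 and 3 and 876494, 1927269 and 1866227 in experimental 1, 2 and 3. Internal fragments took 8704, 4462 and 2855 of the control reads and 13047, 16472 and 9665 of the experimental reads. Their share was 1.58% (95% Wilson interval 1.55 to 1.62), 0.602% (0.585 to 0.62) and 0.901% (0.868 to 0.934) in control 1, 2 and 3. It was 1.49% (1.46 to 1.51), 0.855% (0.842 to 0.868) and 0.518% (0.508 to 0.528) in experimental 1, 2 and 3. The group means were 1.03% ± 0.502 and 0.954% ± 0.493 (SD, n = 3 each), and the groups overlapped (exact two-sided permutation p = 0.7). Libraries of the same group thus differed by more than counting error, and library 1 was the highest in each group. Every experimental library held more tRNA-aligned reads than every control library, and the part of depth in the differences between groups was not tested.

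With 3 against 3 libraries an exact permutation p cannot go below 0.1, so none of the share comparisons could pass 0.05. A level of a fragment is given as RPM, reads scaled to a total of 1000000 tRNA-aligned reads, and 1 read is worth 1.82, 1.35 and 3.15 RPM in the control group and 1.14, 0.519 and 0.536 RPM in the experimental libraries. A count of 0 allows up to 5.45, 4.05 and 9.46 RPM in the control group and 3.42, 1.56 and 1.61 RPM in the experimental libraries, counted as 3 reads. Intervals and these limits hold for counting error alone, because reads copied by PCR are not separate molecules.

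Most internal fragments were rare. Of the 5465 sequences, 2408 had a single read in all, 604 had at least 15, 102 had at least 100 and 280 were seen in all 6 libraries. The rule cut through a small group of reads: over the 6 libraries, starts at position 1 took 60.4% of tRNA-aligned reads, while starts at positions 2 and 3, just outside, took 0.141% and 0.313%, and starts at positions 4 and 5, just inside, took 0.0787% and 0.00954%. At the other end, sequences that stopped 2 bases before the last base took 0.0109% of reads and those that stopped 3 bases before it 0.00693%.

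Internal fragments were short. They ranged from 14 to 40 nt, and the mean length weighted by reads was 19, 19.2 and 18.8 nt in the control group and 18.9, 19.5 and 19.4 nt in the experimental libraries (19 ± 0.194 against 19.3 ± 0.289 nt, SD, n = 3, exact two-sided permutation p = 0.3). Lengths of 14 to 19 nt took 68.9% ± 0.916 and 67.5% ± 3.45 of internal reads (SD, n = 3), with overlapping groups. The shortest length in the table was itself 14 nt, so shorter pieces, if any, were not analysed here.

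Cut sites were set by position relative to the anticodon given in the file headers and to the 3' end. In 146 of the 168 tRNAs, the D, anticodon and T loops placed in this way were unpaired in the deposited structure. The leading layout ran from the D arm to the anticodon arm: it took 68.2%, 67.7% and 61.8% of internal reads in the control group and 48.7%, 61.2% and 49.1% in the experimental libraries. The groups did not overlap, but the closest pair differed by little (65.9% ± 3.56 against 53.0% ± 7.09, SD, n = 3, exact two-sided permutation p = 0.1, adjusted p = 0.4 over 16 layouts). Layouts were compared after the data had been seen.

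Reads started most often in the D loop, with 52.4%, 48.1% and 44.7% in the control group and 29.1%, 44.6% and 32.4% in the experimental libraries. The lowest control and the highest experimental library almost met (48.4% ± 3.88 against 35.4% ± 8.17, SD, n = 3, exact permutation p = 0.1, Benjamini-Hochberg adjusted p = 0.343 over all regions and both ends). The 5' strand of the D stem followed with 15.9% ± 2.13 and 18.5% ± 2.57 and overlapping groups. The commonest first positions were 16, 14 and 13 for the control group, while 16, 13 and 4 led among experimental reads. Position 16 held 17.2% ± 1.38 of control and 14.5% ± 5.44 of experimental reads with overlap, whereas position 14 held 19.8%, 13% and 11% of control and 9.39%, 7.58% and 9.39% of experimental reads without overlap. Position 4, at the edge of the rule, held 6.65% ± 0.514 and 10.2% ± 3.4 (SD, n = 3), with every experimental library higher.

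Starts in the 5' acceptor strand took 9.09%, 9.18% and 8.16% of control and 12.3%, 10.9% and 18.4% of experimental reads, every experimental library above every control library. This difference of 5.05 percentage points leaned on the edge of the rule. It was 1.17 when fragments had to start at position 6 or later and end at least 5 bases before the last base. With each sequence counted once per library it was 1.96. Starts in the anticodon loop took 9.63% ± 2.03 and 7.92% ± 0.528 (SD, n = 3) and overlapped. Starts in the 5' strand of the T stem were rare in the control, with 0.356%, 0.605% and 0.385%, against 10.6%, 1.77% and 5.37% in the experimental libraries. That spread within the experimental group was wide (5.93% ± 4.46 against 0.449% ± 0.136, SD, n = 3, exact permutation p = 0.1, adjusted p = 0.343). Without experimental library 1 the difference was 3.12 percentage points in place of 5.48.

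**Figure D1:**
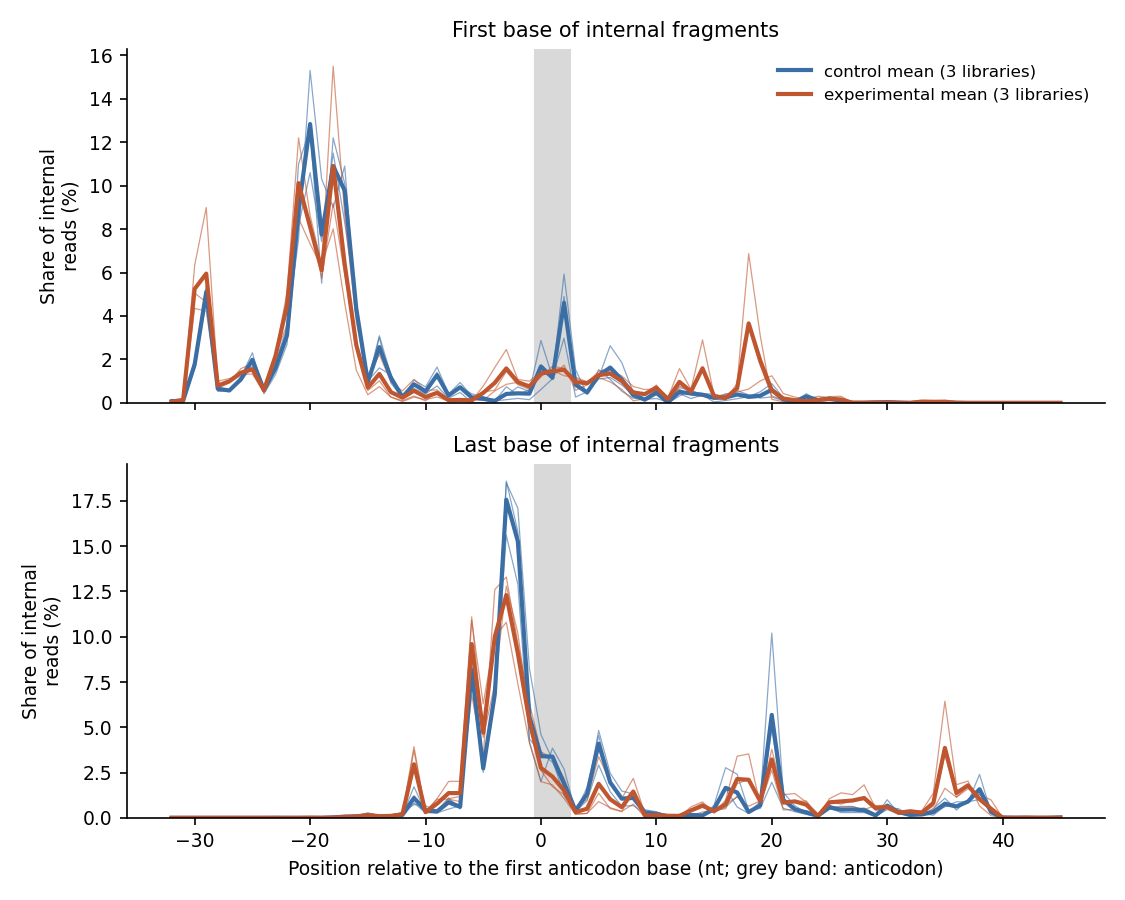
Share of internal reads (%) by the first base (upper) and the last base (lower), plotted against distance in nt from the first anticodon base; thin lines are libraries, thick lines the means of 3 libraries, and the grey band is the anticodon. Starts cluster 21 to 17 nt before the anticodon and ends 6 to 1 nt before it, and the experimental mean has an added start peak 18 nt after it.

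Ends lay close to the anticodon. The 5' strand of the anticodon stem held the last base of 36.1%, 37.2% and 34.3% of control and 38.9%, 37.2% and 37.7% of experimental reads, and the groups overlapped. The anticodon loop held 35.7%, 30.4% and 27.6% of control and 16.9%, 26.7% and 21.8% of experimental ends, every control library above every experimental library (31.3% ± 4.12 against 21.8% ± 4.9, SD, n = 3, exact permutation p = 0.1, adjusted p = 0.343). Counted from the first anticodon base, the commonest last base was 3 nt before it, with 17.6% ± 1.7 and 12.3% ± 1.3, and in the control next came 2 nt before it, with 15.3% ± 2.18 against 9.08% ± 1.49 in the experimental libraries (SD, n = 3). Neither pair of groups overlapped. In the experimental libraries 4 nt before it came next, with 9.98% ± 2.58 against 6.81% ± 0.447 in the control, also without overlap. The last base 6 nt before the anticodon took 8.14% ± 0.477 and 9.59% ± 2.43 with overlap.

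Few reads ended between the anticodon arm and the T arm. T loop ends took 5.63%, 8.56% and 15.8% of control and 5.72%, 10.4% and 8.15% of experimental reads and overlapped. Ends in the 5' strand of the T stem took 2.35% ± 0.342 and 8.5% ± 4.87, and ends in the 3' acceptor strand took 4.05% ± 0.804 and 9.08% ± 3.56 (SD, n = 3, exact permutation p = 0.1 and adjusted p = 0.343 for each). In both cases all experimental libraries lay above all control libraries. Experimental library 1 was the highest in each, at 13.6% and 13%.

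**Figure D2:**
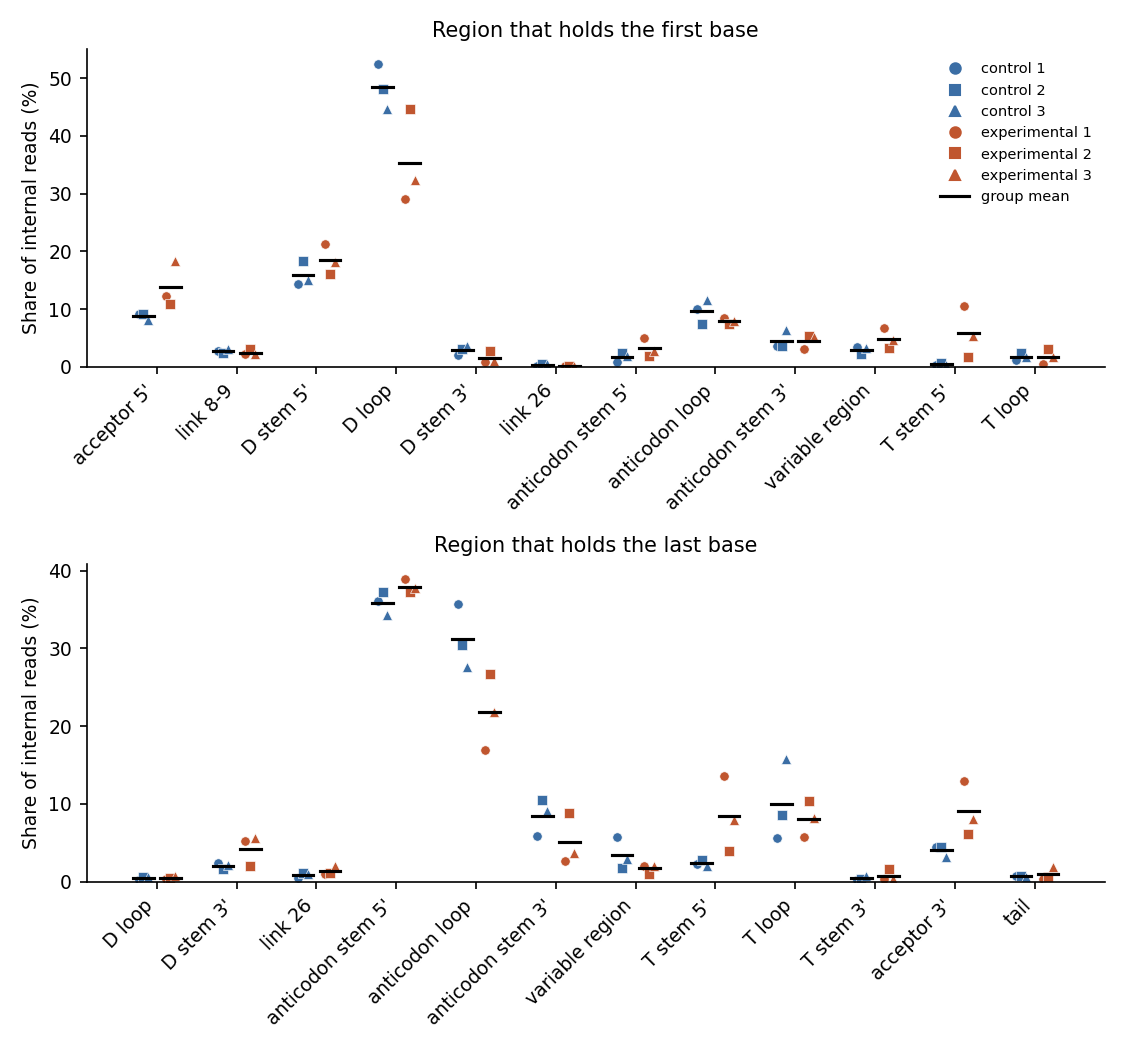
Share of internal reads (%) whose first base (upper) or last base (lower) lies in each structural region; points are libraries and bars are means of 3 libraries. Starts in the D loop and ends in the anticodon loop lie higher in the control libraries, and starts and ends in the 5' strand of the T stem lie higher in the experimental ones.

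The bases beside the cut were uneven. The pair that straddles the 5' cut was GT in 21.5% ± 1.99 of control and 17.3% ± 6.48 of experimental reads (SD, n = 3), against 9.3% of the positions where such a fragment could start in the same tRNAs, weighted by their reads. The pair CA straddled 24.7%, 12.7% and 13.8% of control and 9.58%, 6.78% and 9.59% of experimental 5' cuts, against 4.71% of possible positions. The 2 groups did not overlap for CA. They did not overlap for GG (5.77% ± 0.954 and 11.4% ± 3.56), CT (5.77% ± 0.483 and 8.43% ± 1.02), CC (2.12% ± 0.291 and 5.69% ± 0.618) and GC (2.98% ± 0.687 and 4.81% ± 0.339) either, where the experimental libraries were higher. CT made up 6.08% of possible positions, CC 5.27% and GC 6.88%. Control means of these pairs and of GG lay below their shares of possible positions. Experimental means lay above that share for CT, slightly above it for CC and below it for GG and GC. TC held 13.8% of cuts in each group against 9.23% of possible positions. AT held 10.8% ± 1.04 of control and 8.74% ± 2.6 of experimental cuts with overlap, against 4.54% of possible positions. These pairs were looked at after the data had been seen.

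Lys, Gly and Glu tRNAs gave most internal reads, 70.4% ± 5.7 in the control group and 68.6% ± 1.89 in the experimental libraries (SD, n = 3). Lys took 31.6%, 27.5% and 27.6% of control and 31.0%, 17.8% and 29.1% of experimental internal reads, with overlap. Gly took 26.9%, 25.3% and 21.7% of control and 14.6%, 16.7% and 21.3% of experimental internal reads. Its groups did not overlap, by a narrow margin between control 3 and experimental 3 (24.6% ± 2.64 against 17.5% ± 3.39, exact permutation p = 0.1, adjusted p = 0.38 over 19 kinds). Glu took 16.3%, 19.8% and 14.6% against 22.5%, 36.1% and 16.6%, where experimental 2 stood highest and the groups overlapped.

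Among the smaller kinds, 4 had groups that did not overlap. The experimental libraries were above the control ones for His, with means of 3.21% ± 0.814 against 1.49% ± 0.152, for Ala, with 2.59% ± 1.05 against 0.826% ± 0.264, and for iMet, which starts translation, with 1.92% ± 0.0775 against 1.1% ± 0.406 (SD, n = 3). They were below for Cys, with 2.0%, 3.37% and 5.64% in the control against 1.53%, 1.62% and 1.54% in the experimental libraries. Each had an exact permutation p = 0.1 and an adjusted p = 0.38. The remaining kinds overlapped, among them Pro with 5.17% ± 1.29 and 4.3% ± 1.89 and Met with 4.86% ± 3.22 and 3.24% ± 0.107. These too are shares of internal reads. As internal levels in RPM, the groups of Gly, His, iMet and Cys overlapped, and those of Ala did not.

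Shares were also taken by anticodon, and values are given for some anticodons of Lys, Glu and Gly. A sequence was split by its alignments here and by its distinct amino acids above, so anticodon shares need not add up to the amino acid's share. Lys-TTT took 7.35%, 11.3% and 10.9% of control and 4.51%, 3.66% and 4.78% of experimental internal reads without overlap, while Lys-CTT took 19.1% ± 4.51 and 21.7% ± 6.58 with overlap. Glu-TTC took 2.4%, 3.33% and 3.15% against 11.4%, 8.37% and 6.4% without overlap. Gly-GCC took 17.6%, 17.4% and 15.8% against 8.98%, 10.8% and 12.8% without overlap, and Gly-CCC 7.01% ± 1.64 and 5.69% ± 1.5 with overlap (SD, n = 3). Gly-TCC was higher in every experimental library, with 0.659%, 0.807% and 0.551% against 0.922%, 0.939% and 1.07%. Each value without overlap had an exact permutation p = 0.1 and an adjusted p = 0.325 over 39 anticodons. Anticodons of other kinds without overlap in this share were Cys-GCA, His-GTG, iMet-CAT, Leu-AAG, Ala-AGC, Ala-TGC, Thr-TGT and Thr-AGT. All of these are shares of internal reads and not levels. As a level, Lys-TTT stood at 1163, 679 and 983 RPM against 671, 313 and 247.5 RPM, also without overlap. Glu-TTC, at 379, 201 and 284 against 1702, 715 and 332 RPM, overlapped. Gly-GCC, at 2785, 1049 and 1424 against 1337, 927 and 661 RPM, overlapped too, as did the level of Gly-TCC. Among anticodons of other kinds, the levels of Ala-AGC, Thr-AGT and Ser-AGA did not overlap between groups. Whether the anticodons of an amino acid differed from each other in their change was not tested.

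How much of a tRNA's fragments was internal differed widely between kinds. The internal share of a kind's exact nuclear reads, looked at after the data had been seen, was 93.0% ± 2.86 and 94.2% ± 2.43 for Met, 76.7% ± 5.03 and 84.9% ± 4.65 for iMet and 72.1% ± 7.74 and 77.2% ± 11.6 for Pro (control and experimental, SD, n = 3). For Gly it was 0.447% ± 0.232 and 0.312% ± 0.142, and for Glu 5.69% ± 1.68 and 5.17% ± 2.16. The 5' fragments stood at 564958 ± 35617 and 515947 ± 52317 RPM for Gly and 27159 ± 4618 and 43434 ± 22651 RPM for Glu (SD, n = 3). For Met they stood at 0 RPM in each control library and at 6.85, 0.519 and 0.536 RPM in the experimental libraries.

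In 8 of the 19 kinds the groups did not overlap in this share (iMet, Lys, Leu, Trp, Ile, Ala, His and Val), each with an exact permutation p = 0.1 and an adjusted p = 0.238. Groups without overlap were common in these data. Over all single fragments tested below, they made up 26.1% with the experimental group higher and 14.6% with it lower in normalised counts. That is another measure, so the 8 kinds cannot be called particular to internal fragments. Except for Ala, the internal levels of these 8 kinds in RPM overlapped between groups. Lys was internal in 36.8%, 15.7% and 28.8% of its control reads and 10.9%, 2.06% and 4.79% of its experimental reads. Its internal level overlapped between groups, at 3051 ± 1744 and 2548 ± 1786 RPM, while its 5' fragments, which start at positions 1 to 3, stood at 8288, 8855 and 6027 RPM in the control group and 37701, 72370 and 29938 RPM in the experimental libraries. Leu was internal in 9.5%, 10.8% and 12.2% of control and 40.2%, 28.8% and 28.1% of experimental reads. Its internal level was 325 ± 206 and 488 ± 423 RPM with overlap, and its 3' fragments, which end within the last 3 bases, stood at 2777 ± 2098 and 741 ± 419 RPM (SD, n = 3).

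Trp was internal in 20.9%, 22.7% and 17.6% of control and 44.1%, 60.2% and 56.4% of experimental reads, although a library held only 91 to 349 exact Trp reads. Its 3' fragments stood at 234 ± 138 and 68.5 ± 35.9 RPM with overlap, and its internal level at 59.5 ± 35.1 and 76.7 ± 34.6 RPM. Ile was internal in 16.6% ± 10.1 and 42.0% ± 3.3 of its reads, with 3' fragments at 622 ± 555 and 92.0 ± 38.5 RPM, which did not overlap. The values were 4.02% ± 1.77 and 17.6% ± 8.17 for Ala, 3.43% ± 0.477 and 8.08% ± 2.97 for His and 7.39% ± 1.14 and 10.4% ± 0.508 for Val (SD, n = 3). The 3' fragments of His stood at 254 ± 84.7 and 50.4 ± 30.9 RPM without overlap, and those of Ala at 2125 ± 1315 and 1049 ± 435 RPM with overlap. The internal level was 79.3 ± 24.3 and 75.5 ± 28.6 RPM for Ile and 148 ± 56.5 and 316 ± 182 RPM for His. It was 210 ± 192 and 334 ± 190 RPM for Val and 99.7 ± 17.2 and 183 ± 91.8 RPM for iMet, each with overlap. Ala, at 77.2 ± 17.1 and 261 ± 218 RPM, did not overlap (SD, n = 3).

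**Figure D3:**
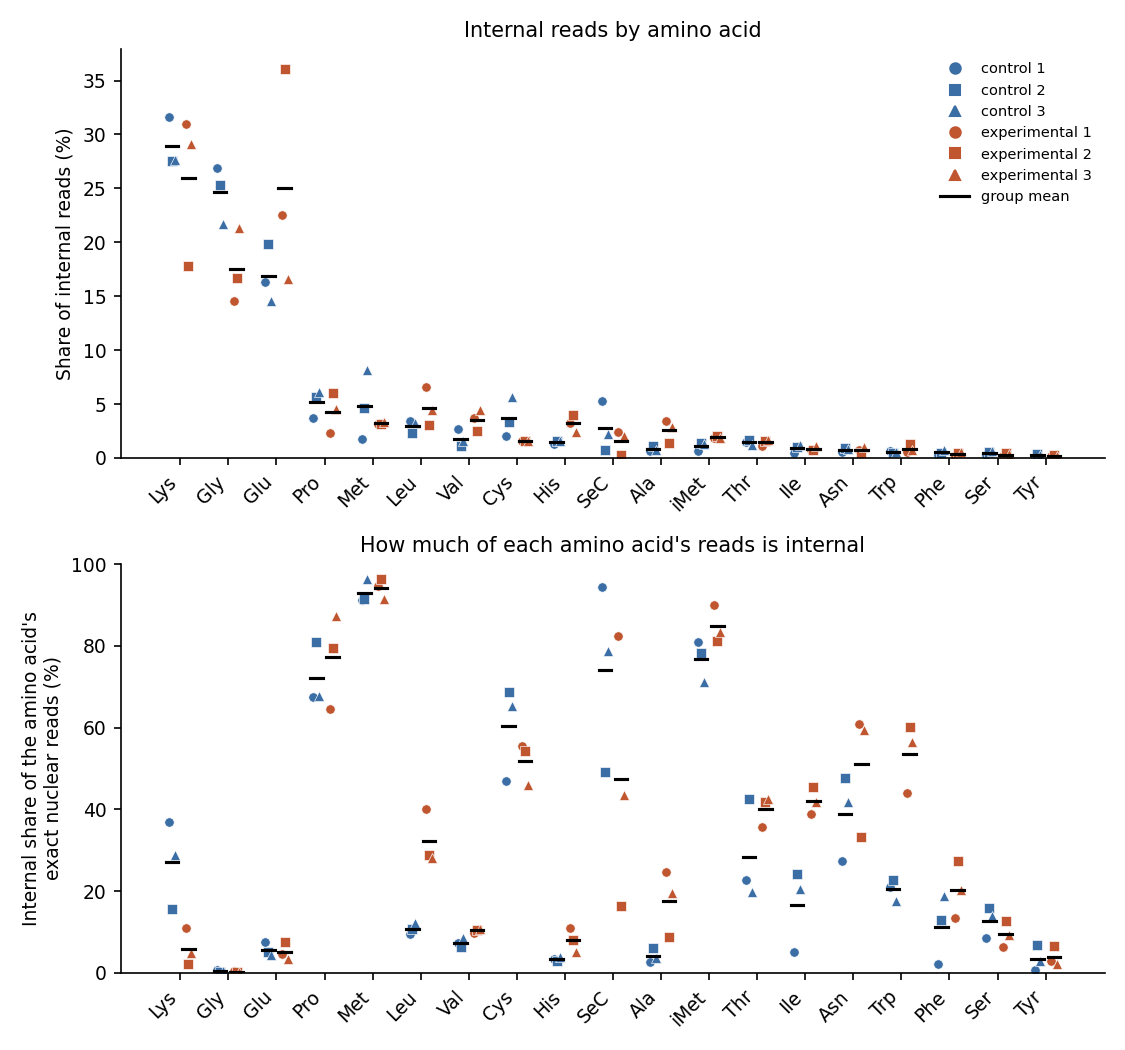
For each kind of tRNA, its share of all internal reads (upper, %) and the internal share of its own exact nuclear reads (lower, %); points are libraries and bars are means of 3 libraries. Lys, Gly and Glu lead the upper plot, and in the lower plot Met, iMet and Pro are mostly internal, Lys lies lower and Leu and Trp higher in the experimental libraries.

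Internal fragments were set against 5' fragments of the same tRNA to see whether they stopped at the same base. In Gly-GCC both stopped most often at position 31 in the control, 24.1% ± 6.7 of internal and 49.9% ± 8.36 of 5' fragments. In the experimental libraries that position held 19.2% ± 2.81 of internal and 26.1% ± 12.3 of 5' fragments. Position 32 held 14.3% ± 1.88 of control and 27.8% ± 3.0 of experimental 5' fragments without overlap, so it led by mean among the experimental 5' fragments. In Lys-CTT the ends differed: in the control internal fragments stopped most at position 31, with 27.9% ± 4.02, against 15.9% ± 0.477 in the experimental libraries. Among experimental internal fragments position 28 led by mean with 21.9% ± 7.98, from 26.4%, 12.7% and 26.7%. In experimental 2 position 32 stood above it, at 16.4%. Position 28 held 15.5%, 14.2% and 7.54% in the control libraries, so its groups overlapped. The 5' fragments stopped most at positions 33 and 34, and position 34 held 28.2% ± 10.8 and 50.4% ± 15.5 (control and experimental, SD, n = 3).

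Single fragments were compared with limma voom, fitted to every sequence of the table that passed a filter on low counts. Of 2226 fragments tested, 18.7% were called higher and 7.64% lower in the experimental libraries at an adjusted p of 0.05. Of the 5465 internal fragments 130 passed the filter, of which 1 was called higher (0.769%) and 4 lower (3.08%), so both shares were below those over all fragments tested. Groups that did not overlap in normalised counts were seen for 5.38% of the 130 with the experimental group higher and 7.69% with it lower, against 26.1% and 14.6% of all fragments tested. The median log2 fold change was -0.31 over the 130 and 0.21 over all fragments tested. With scaling by library totals these medians were -0.59 and -0.07, and without experimental library 3 they were 0.18 and 0.09. All fragments tested include sequences with 1 mismatch, whereas internal fragments match exactly. In a fit of exact matches only, the medians were -0.28 over internal fragments and -0.11 over all. Of 1037 exact sequences tested there, 101 were called higher and 91 lower, and of the 135 internal ones 1 and 3.

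All tested fragments shared a pooled spread in that fit, with standard errors of 0.872 to 1.07. With each fragment's own spread, limma voom called 0 internal fragments in either direction, against 0.674% higher and 0.359% lower of all tested, and 12 internal fragments had an unadjusted p under 0.05, 9.23% of the 130 against 26.5% of all tested. The calls below therefore rest on the pooled spread, and 3 of the 4 called lower are described. The groups of the other, which is not reported here, overlapped, and its call held under 1 of 8 alternatives. Where leaving out a library put a fragment under the filter, it has no value for that setting.

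The fragment called higher was Lys-CTT 4-33, which runs from the acceptor stem to the base before the anticodon, so nearly the whole 5' side of the tRNA. It is printed here since it is the only internal fragment called higher in that fit. Its tRNA gene was listed at chr6:93417550-93417622.
Lys-CTT 4-33: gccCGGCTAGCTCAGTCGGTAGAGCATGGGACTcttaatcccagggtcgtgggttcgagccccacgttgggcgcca
Its level was 12.7, 4.05 and 3.15 RPM in the control group and 66.2, 41.5 and 27.3 RPM in the experimental libraries, from 7, 3 and 1 and 58, 80 and 51 reads. It passed the filter only through the experimental libraries, where it is high, so its fitted values are a description and not support (limma voom log2 fold change 2.93 with SE 0.99, adjusted p = 0.0159, range 0.0107 to 0.203 over alternatives). The call was lost with scaling by library totals (adjusted p = 0.0533), without control library 2 (adjusted p = 0.165) and without control library 3 (adjusted p = 0.203). With its own spread, limma voom gave an adjusted p of 0.11. Without any 1 of the experimental libraries the fragment fell under the filter, so those settings could not uphold the call. The 5' fragments of Lys tRNAs, which start up to 3 bases earlier, were also higher in every experimental library, as given above.

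Asn-GTT 28-41, which spans the whole anticodon loop, was called lower. It stood at 61.8, 40.5 and 41.0 RPM in the control group and 5.7, 4.15 and 1.61 RPM in the experimental libraries, from 34, 30 and 13 and 5, 8 and 3 reads. It passed the filter only through the control libraries, where it is high, so its fitted values are a description and not support (limma voom log2 fold change -3.44 with SE 0.99, adjusted p = 0.00427, range 0.00277 to 0.108). The call was lost without experimental library 3 (adjusted p = 0.108). With its own spread, limma voom gave an adjusted p of 0.0776. Without any 1 of the control libraries the fragment fell under the filter, so those settings could not uphold the call. Asn as a kind took 0.782% ± 0.222 and 0.712% ± 0.292 of internal reads (SD, n = 3) with overlap.

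Lys-TTT 14-31, which stops 3 nt before the anticodon, was called lower. It stood at 296, 163 and 126 RPM in the control group and 49.1, 23.9 and 24.1 RPM in the experimental libraries (limma voom log2 fold change -2.31 with SE 0.89, adjusted p = 0.038, range 0.0214 to 0.224). The call was lost without the main filter (adjusted p = 0.086), with the replicate number as a block (adjusted p = 0.0679), without control library 1 (adjusted p = 0.0977) and without any 1 of the experimental libraries (adjusted p = 0.052 to 0.224). With its own spread, limma voom gave an adjusted p of 0.0989. Lys-TTT 13-28, which starts 1 base earlier and stops 3 bases earlier, stood at 98.2, 108 and 180 RPM against 59.3, 65.4 and 30.5 RPM. Its groups did not overlap either, but it did not pass the test (limma voom log2 fold change -1.07 with SE 0.89, adjusted p = 0.392).

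Pro-AGG 17-31 was called lower and differs by its last base from the more abundant Pro-AGG 17-30. The longer form stood at 58.2, 21.6 and 41.0 RPM in the control group and 4.56, 5.71 and 3.75 RPM in the experimental libraries. It too passed the filter only through the control libraries, and its fitted values are a description (limma voom log2 fold change -2.67 with SE 0.98, adjusted p = 0.0297, range 0.0194 to 0.188). The call was lost without the main filter (adjusted p = 0.0599) and without any 1 of the experimental libraries (adjusted p = 0.067 to 0.188). With its own spread, limma voom gave an adjusted p of 0.116. Without any 1 of the control libraries the longer form fell under the filter, so those settings could not uphold the call. The shorter form stood at 144, 101 and 82.0 RPM and 59.3, 105 and 57.9 RPM, with overlap (limma voom log2 fold change -0.33 with SE 0.89, adjusted p = 0.821). Whether the changes of the 2 forms differ was not tested.

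The fragment with the highest mean level in the control was Gly-CCC 16-31, which the Gly-GCC tRNAs share. It stood at 720, 197 and 151 RPM in the control group and 156, 154 and 75.0 RPM in the experimental libraries, with control 1 apart from the other 5 (limma voom log2 fold change -0.94 with SE 0.87, adjusted p = 0.451). Gly-CCC 4-31, with the same last base, stood at 282, 163 and 107 RPM and 122, 98.1 and 104 RPM, with overlap. Cys-GCA 14-27, a sequence also found in a Pro-AGG tRNA, stood at 54.5, 31.1 and 139 RPM against 21.7, 16.6 and 7.5 RPM without overlap and did not pass the test (limma voom adjusted p = 0.119).

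Other abundant fragments were higher in some experimental libraries only. Lys-CTT 13-28 stood at 124, 48.6 and 41.0 RPM in the control group and 432, 40.5 and 125 RPM in the experimental libraries, where experimental 1 was highest and experimental 2 lowest of all 6 (limma voom adjusted p = 0.295). Lys-CTT 14-32, from the same tRNA, leaned the other way with 289, 72.9 and 129 RPM against 82.1, 49.8 and 33.8 RPM and overlap (limma voom adjusted p = 0.346). Val-AAC 4-23 stood at 115, 16.2 and 9.46 RPM and 212, 25.4 and 98.1 RPM with overlap (limma voom adjusted p = 0.142).

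Met-CAT 34-54, which holds the anticodon and reaches the T loop, stood at 41.8, 60.8 and 180 RPM in the control group and 69.6, 66.9 and 20.9 RPM in the experimental libraries. Control 3 was highest and experimental 3 lowest, and the groups overlapped (limma voom log2 fold change -0.47 with SE 0.89, adjusted p = 0.735). The His and iMet fragments with the most reads, both at 16-31, also overlapped, with means of 10.5 ± 4.41 and 20.5 ± 12 RPM for His and 17.7 ± 9.92 and 15.6 ± 11.2 RPM for iMet (SD, n = 3).

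**Figure D4:**
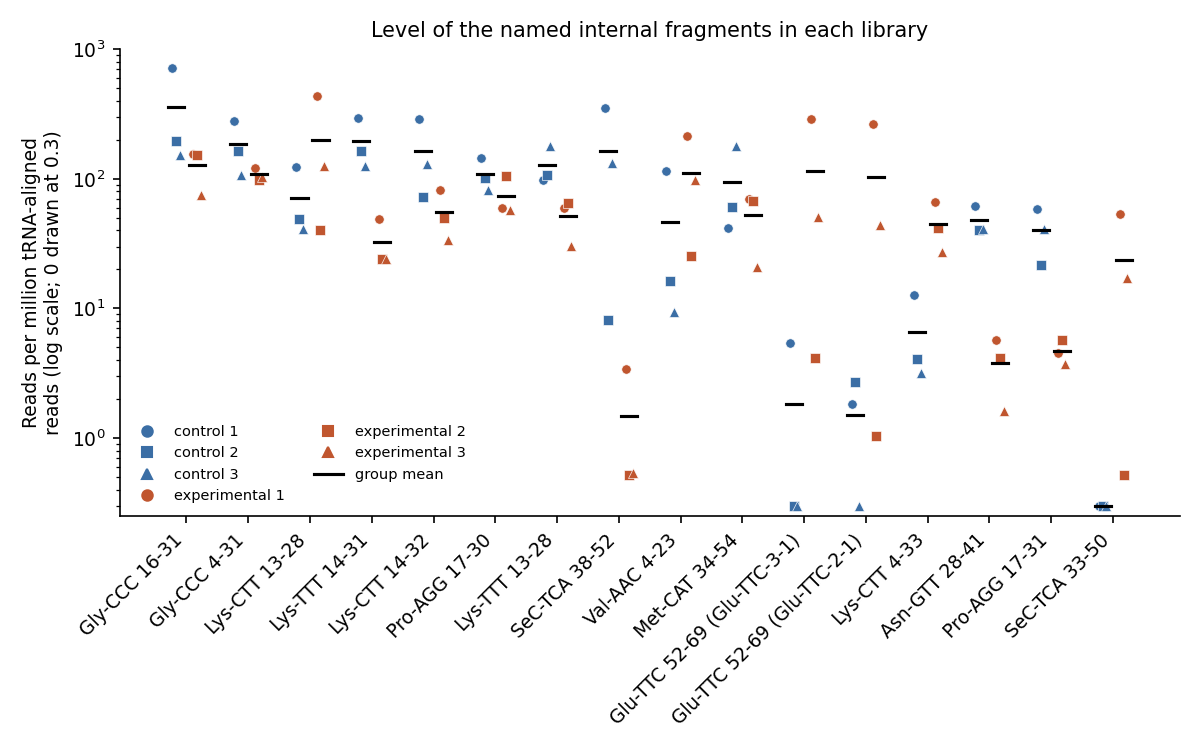
Level of the reported named internal fragments in RPM, on a log axis where 0 is drawn at 0.3. Those named only as the most abundant of their kind are not drawn. Points are libraries and bars are means of 3 libraries. Asn-GTT 28-41, Lys-TTT 14-31 and Pro-AGG 17-31 lie lower and Lys-CTT 4-33 higher in every experimental library, while the Glu-TTC 52-69 fragments are spread over more than 1 order of magnitude within the experimental group.

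Fragments that began in the T stem's 5' strand and ended in the 3' acceptor strand formed a group of 228 sequences, none of which passed the filter for the fit. Their summed level was 49.1, 32.4 and 31.5 RPM in the control group and 1570, 148.5 and 273 RPM in the experimental libraries, without overlap and with experimental 1 far above the other 2 (exact two-sided permutation p = 0.1). Glu gave 16.4, 5.4 and 0 RPM of this in the control group and 1093, 33.2 and 186 RPM in the experimental libraries. Ala gave 7.27, 5.4 and 0 RPM against 347, 15.6 and 57.5 RPM. This group was summed after the data had been seen.

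Glu-TTC 52-69, printed above, had 3, 0 and 0 reads in the control group and 254, 8 and 94 reads in the experimental libraries, or 290, 4.15 and 50.4 RPM in the latter. A second Glu-TTC gene, listed at chr9:37781278-37781349, gave a near-identical fragment at the same positions, chosen after its values were seen. It is printed for comparison, and reads of these 2 genes differ by the fragment's own sequence.
Glu-TTC 52-69 of the second gene: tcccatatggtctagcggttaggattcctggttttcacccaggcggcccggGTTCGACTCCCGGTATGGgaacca
It had 1, 2 and 0 reads in the control group and 231, 2 and 82 reads in the experimental libraries. Both sequences were highest in experimental 1, next in experimental 3 and low in experimental 2. Ala-CGC 52-70 had the same order with 0, 1 and 0 reads in the control group and 150, 9 and 48 reads in the experimental libraries. The part that experimental library 1 has in these sums was not tested beyond the values given.

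SeC tRNA, which carries selenocysteine and has a longer acceptor stem and variable arm than most other tRNAs, so that its regions are less well placed by position, gave a pair of fragments with opposite patterns. Its gene was listed at chr1:80212980-80213066 and its anticodon lay at positions 36 to 38. Both are printed because they overlap around the last anticodon base, and the second was chosen after its values were seen.
SeC-TCA 38-52: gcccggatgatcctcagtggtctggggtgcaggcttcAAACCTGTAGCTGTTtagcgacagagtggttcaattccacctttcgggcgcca
SeC-TCA 33-50: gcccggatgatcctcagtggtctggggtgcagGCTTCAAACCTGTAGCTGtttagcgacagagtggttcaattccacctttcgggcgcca
SeC-TCA 38-52 had 194, 6 and 42 reads in the control, or 353, 8.1 and 132 RPM, against 3, 1 and 1 reads in the experimental libraries. SeC-TCA 33-50 had 0 reads in every control library and 47, 1 and 32 reads in the experimental libraries, or 53.6, 0.519 and 17.1 RPM. The first was low in control 2 and the second in experimental 2, and neither passed the filter for the fit. SeC as a kind took 2.75% ± 2.35 and 1.56% ± 1.1 of internal reads with overlap (SD, n = 3).

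The most abundant fragments of Trp, Ile and Thr lay 3' of the D arm and did not overlap between groups, with few reads each. Trp-CCA 43-56, from the variable region to the T loop, had 5, 3 and 2 reads and 15, 20 and 29 reads, or 6.48 ± 2.52 and 14.3 ± 3.52 RPM. Ile-AAT 37-60, from the last anticodon base to the T loop, stood at 5.73 ± 2.24 and 14.6 ± 6.13 RPM. Thr-AGT 37-72, which runs from the last anticodon base to the 3' acceptor strand, was lower in the experimental libraries at 12.2 ± 2.9 and 4.92 ± 1.7 RPM (SD, n = 3). Leu-AAG 47-60 stood at 58.2, 9.45 and 9.46 RPM and 69.6, 7.26 and 11.3 RPM, so library 1 was the highest in each group. None of these 4 passed the filter for the fit.

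Internal reads were also summed by kind of tRNA and compared, with limma voom over all 109 sums of a kind and a position class. Of all sums 5.5% were called higher and 3.67% lower in the experimental libraries, and of the 19 internal sums 0 were called in either direction. Groups did not overlap in normalised counts for 5.26% of internal sums with the experimental group higher and 5.26% with it lower. Over all sums these shares were 13.8% and 19.3%. An unadjusted p under 0.05 was reached by 1 of the 19 (5.26%, against 30.3% of all sums), Ala, with 53, 50 and 21 reads in the control group and 449, 233 and 280 in the experimental libraries (limma voom log2 fold change 1.53 with SE 0.73, adjusted p = 0.128, range 0.0346 to 0.476). Without control library 1, Ala and Val passed, with log2 fold changes of 1.84 and 1.9 (limma voom adjusted p = 0.0346 and 0.0217). Limma trend called 0 as well.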

How the data were processed

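Per the labels' protocols, RNA was extracted with Trizol, and small RNA libraries were sequenced on an Illumina instrument. The authors deposited a raw read count per distinct sequence and library, with its alignments to mature tRNAs (CCA added) and precursors at up to 1 mismatch, per the file headers and values. A mouse genome build stands in the submitters' processing notes, although the samples are labelled as rat. Neither the build of the printed positions nor the aligner is given in the sources used here. Total library depth was not analysed here. Reads with more than 1 mismatch are not in the table.

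From these counts, each sequence was counted once. It was split equally among its exact mature alignments for regions and anticodons, and equally among its distinct amino acids for amino acid shares. Of the 5465 internal fragments, 3123 matched several tRNAs, 885 several anticodons and 127 several amino acids. Regions followed from the anticodon position and the length of each tRNA. For shares, the exact permutation test was used, two-sided over every split of the libraries, with Benjamini-Hochberg adjustment within each family of shares. Wilson intervals were taken from scipy 1.17.1. Single sequences of the whole table (10 counts' worth in 3 libraries, 15 in all) and sums by amino acid and position class were compared with limma 3.58.1 voom in R 4.3.3, with trimmed mean of M values factors and no covariate, and adjusted over all features tested. The self-test on simulated counts was run first. Voom was the fit of an earlier account of these data and was kept for these counts of distinct sequences.

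Fragments were named as the 12 places with the highest mean share, every called internal fragment and the most abundant one of each kind with at least 30 reads. Ends within 2 nt share a place. Some named fragments are not reported here. Members, lists and tests were chosen with earlier results of these data known. The same replicate number did not pair libraries (correlations of -0.31, -0.057 and 0.136).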

Additional observations from a re-analysis of the deposited data

How the results depend on the processing

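With 3 libraries a group, few reads per fragment and raw counts of unequal depth, most differences here could not pass a threshold. The internal share of reads differed by -0.0748 percentage points and by -0.342 to 0.202 when a library was left out. Counting each sequence once per library turned the differences in percentage points for Glu (-0.54), T loop ends (0.643), ends in the 5' strand of the anticodon stem (-3.97), starts in the D stem (-2.59) and starts in the anticodon loop (3.3). Lengths of at least 16 nt turned Pro (0.084). Leaving out a library gave -5.44 to 1.13 for Lys, -1.75 to 0.133 for Pro and -4.06 to 1.01 for T loop ends. For the internal share of a kind's own reads it gave -1.71 to 0.434 for Glu, -0.0262 to 11.4 for Pro and -0.854 to 2.26 for Tyr. The direction held under every alternative run for starts in the D loop (-17.6 to -9.89 when a library was left out) and the T stem (3.12 to 7.55), and for ends in the anticodon loop (-11.9 to -7.02).

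The internal fragments called higher, 1 in the voom fit, were 0 with library totals, 6 without the main filter, 0 with each fragment's own spread, 2 with limma trend and 0 to 3 with a library left out. Those called lower, 4, were 0 with their own spread, 2 with the filter doubled and 0 to 2 with a library left out. With the replicate number as a block, 1 was called higher and 2 lower, and the numbers do not pair the libraries. Internal sums called higher were 0 to 2 with a library left out. The log2 fold change turned in range for Pro-AGG 17-30 (-0.92 to 0.07), Met-CAT 34-54 (-1.01 to 0.34), iMet-CAT 16-31 (-1.07 to 0.84) and the sums of Gly (-0.97 to 0.04) and Lys (-0.61 to 0.34, with 0.17 without experimental library 3). The difference in RPM turned for Leu-AAG 47-60 (-16.4 to 19.9). The cause was not tested. Layouts, the internal share of a kind and limma trend on sums were added after seeing the data.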
